A study of Mus musculus with 6 samples.

Results

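The replication-dependent histone genes were taken as every row of the deposited mouse count table whose gene symbol starts with Hist, a cluster number and h. The rule found 70 of the 55573 genes in the table, made up of 6 H1, 20 H2A, 19 H2B, 12 H3 and 13 H4 genes. The annotation lists 3 of them, Hist1h2aj, Hist1h2al and Hist3h2bb-ps, as pseudogenes. A count was present in at least 1 library for 61 of the 70, and 9 were at 0 in every library. The filter on low counts kept 40 of the 70, against 8444 of all genes, and a gene that passes it through the group where it is higher is favoured to differ, so the counts below describe the 40 tested genes and not the whole family.

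The study compared cells sorted as retinal ganglion cells (RGCs), the output neurons of the retina, by fluorescence-activated cell sorting. All mice were C57BL/6 and carried floxed alleles of both Myh9 and Myh10, which encode non-muscle myosin II heavy chains. The control group (WT, 3 libraries) received AAV2-GFP in the vitreous and the other group (dKO, 3 libraries) received AAV2-Cre, 2 weeks before the retinas were taken, so the groups share the floxed alleles and an AAV2 injection and differ in the virus's cargo. Each library pooled 3 retinas from 3 mice, and total RNA went into a stranded library kit without poly(A) selection. The sources used here give neither the age of the mice nor the promoter of the Cre vector.

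Most histone proteins of a dividing cell come from this gene family. Core histones H2A, H2B, H3 and H4 form the nucleosome, and H1 binds the linker DNA between nucleosomes. Their genes lie in clusters, are transcribed mainly in S phase, and yield transcripts that typically lack introns and end in a conserved stem-loop in place of a poly(A) tail. The stem-loop is bound by the protein encoded by Slbp and is cut just downstream with the help of U7 snRNP. Libraries selected for poly(A) tails therefore miss most of these RNAs, whereas total RNA libraries such as these retain them. In cells that have left the cell cycle, some of these genes are known to give polyadenylated transcripts that run past the stem-loop.

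The annotated transcripts (GENCODE M21 on GRCm38) were searched on the transcript strand for the stem-loop letters GGCNCTTTTCAGNGCC with up to 2 mismatches, since this element defines the family's unusual RNA end. The letters are the commonest inverted repeat (6-base stem, 4-base loop) of the H4 genes and that of the other classes, with N where these differ. It was present in 46 of the 70 genes, 21 to 58 bases after the stop codon with a median of 31.0, and in 390 of 21834 other protein-coding genes (1.79%). A match is a description of the letters only. The sequences below show the forms among the genes described later, each 5′ to 3′ on the transcript strand, with the matched 16 bases in capitals and 5 flanking bases on each side.
Hist1h1d: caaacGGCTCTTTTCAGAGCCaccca
Hist1h2ab: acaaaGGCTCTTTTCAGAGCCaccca
Hist2h2ac: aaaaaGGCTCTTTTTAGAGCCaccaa
Hist3h2ba: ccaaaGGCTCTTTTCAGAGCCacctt
Hist1h3a: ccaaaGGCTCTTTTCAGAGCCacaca
Hist1h3e: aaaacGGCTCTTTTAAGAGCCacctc
Hist1h4d: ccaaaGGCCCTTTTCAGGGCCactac
Hist1h4c: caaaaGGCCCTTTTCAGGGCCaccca
Hist1h4j: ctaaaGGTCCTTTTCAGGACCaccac

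The stem divided the H4 genes from the other classes. The form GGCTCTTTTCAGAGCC was found in 26 genes, namely 3 H1, 10 H2A, 8 H2B and 5 H3 genes, and in 0 H4 genes. The form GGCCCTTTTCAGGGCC was found in 7 genes, all H4. The other H4 matches were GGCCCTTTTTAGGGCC and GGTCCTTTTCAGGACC in 2 genes each and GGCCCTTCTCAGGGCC in 1, forms found in no other class. The form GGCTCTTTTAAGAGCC, shown for Hist1h3e, was found in 6 genes, 1 H1, 2 H2B and 3 H3. Of the 21 coding members without a match, 17 have an annotated transcript that ends within 50 bases of the stop codon, so the annotation stops near where the element lies in the other members.

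The libraries were shallow outside ribosomal RNA. The totals ran from 4569880 to 6146226 counts, of which 1 ribosomal RNA row held 89.8% to 92.8% in 5 libraries and 64.2% in dKO replicate 3. Counts outside that row were 346037 to 576060 in those 5 libraries and 1636581 in dKO replicate 3, and the 70 histone genes together had 10986 counts over the 6 libraries. The targeted genes were not detectably lower in the libraries labelled dKO: Myh9 had 63.7 ± 3.88 CPM (counts per 1000000 of scaled library size; SD, n = 3) in WT and 62.2 ± 4.09 in dKO, and Myh10 had 18.6 ± 2.06 and 17.9 ± 3.36 (edgeR quasi-likelihood test, adjusted p = 0.908 and 0.735). Counts cover the whole gene, so they do not read the floxed part alone. Of 14 RGC markers 5 passed the filter, and the 14 together held 0.0248% to 0.0301% of non-ribosomal counts in WT and 0.0351% to 0.0372% in dKO, against 3.19% to 3.57% for 14 markers of Müller glia and astrocytes. The cells are therefore called RGCs here only as labelled.

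Histone RNA as a whole took a larger share of the counts in every library labelled dKO than in any WT library. Summed over the 70 genes, it made up 0.236%, 0.257% and 0.237% of the non-ribosomal counts in WT replicates 1, 2 and 3, and 0.308%, 0.277% and 0.296% in dKO replicates 1, 2 and 3. The means were 0.243% ± 0.0118 and 0.294% ± 0.0159 (SD, n = 3), a ratio of 1.21. The gap between the nearest libraries of the groups was small, 0.257% against 0.277%. Without dKO replicate 3, the deepest library, the log2 ratio of the means was 0.27, as with it, and those of the classes below were 0.19 (H1), 0.05 (H2A), 0.30 (H2B), 0.23 (H3) and 0.36 (H4). No test was made of these sums. In bulk samples, fewer cells of a type and less RNA per cell cannot be told apart.

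By class, the mean sum was higher in dKO for all 5 classes. The libraries of the groups did not overlap for H1, H2B and H4, and they overlapped for H2A and H3. Differences between classes were not tested. H4, the most counted class with 36.1% of histone counts, made up 0.0789%, 0.0913% and 0.0882% of counts in the WT libraries and 0.115%, 0.107% and 0.105% in the dKO libraries. H2B made up 0.0525%, 0.0509% and 0.0531% in WT and 0.0651%, 0.0629% and 0.0598% in dKO. The log2 ratios of the group means were 0.34 for H4 and 0.26 for H2B, each larger than the spread between replicates.

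For H1 the shares were 0.0485%, 0.0506% and 0.0413% in WT and 0.0561%, 0.0507% and 0.0643% in dKO, with a log2 ratio of 0.29. Its groups were separated only by the difference between 0.0506% and 0.0507%. For H3 they were 0.0310%, 0.0361% and 0.0263% in WT and 0.0427%, 0.0304% and 0.0379% in dKO, so dKO replicate 2 lay below 2 of the WT libraries. Its log2 ratio, 0.25, was close to those of H2B and H1, with a wider spread between libraries. H2A stood at 0.0246%, 0.0277% and 0.0281% in WT and 0.0297%, 0.0260% and 0.0288% in dKO, a log2 ratio of 0.07 that is smaller than its replicate spread.

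**Figure D1:**
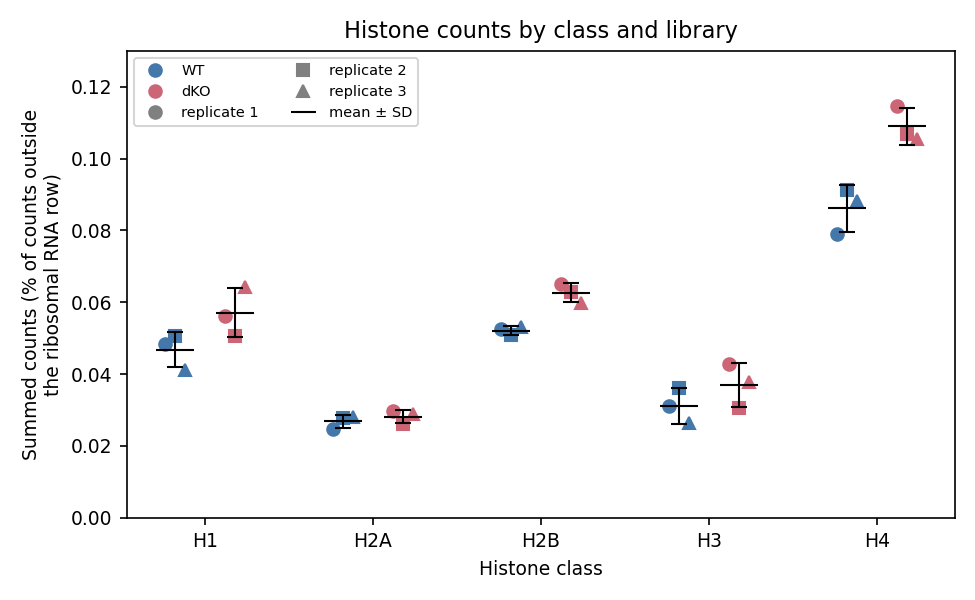
Summed counts of each histone class as a percentage of non-ribosomal counts, with 1 point per library (blue WT, red dKO, the shape giving the replicate) and lines for each group's mean ± SD. The 3 dKO libraries lie above the 3 WT libraries for H1, H2B and H4, and the groups overlap for H2A and H3.

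As a share of all histone counts, H4 was 35.4% ± 1.87 in WT and 37.1% ± 1.497 in dKO, H2B was 21.5% ± 1.45 and 21.3% ± 1.27, H1 was 19.2% ± 1.63 and 19.4% ± 1.99, and H3 was 12.8% ± 1.53 and 12.6% ± 1.44 (SD, n = 3). For these 4 classes the groups' means lay closer together than the larger of their SDs. H2A was 11.1% ± 0.732 in WT and 9.58% ± 0.163 in dKO, with 10.5%, 10.8% and 11.9% in the WT libraries and 9.63%, 9.40% and 9.72% in the dKO libraries, which do not overlap. These shares sum to the whole, so one cannot move without the others.

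Gene by gene, 1 of the 40 tested histone genes was called higher in dKO and 0 were called lower, at a Benjamini-Hochberg adjusted p under 0.05 over all 8444 genes by edgeR's quasi-likelihood test. Of all tested genes 0.734% were called higher, 1.18% lower and 1.92% in either direction, so the count of called histone genes is near the background. Before adjustment, 9 of the 40 had p under 0.05 with a higher level in dKO, where 5.66% of all genes did, and 0 had it with a lower level, where 6.88% of all genes did. Of these 9, Hist1h3a, Hist1h4j and Hist2h2bb needed their dKO libraries to pass the low-count filter, so they were favoured to differ. DESeq2 and limma-voom each called 0 histone genes, and gave 3 and 7 of the 40 an unadjusted p under 0.05, all higher in dKO. With these tools 2.4% and 5.18% of all genes had such a p with a higher level in dKO. The log2 fold change was positive for 35 of the 40 (87.5%) and for 49.8% of all genes, with a median of 0.27 over the histone genes and -0.00067 over all genes. Groups did not overlap for 6 histone genes with dKO higher (8.66% of all genes) and for 0 with dKO lower (8.31% of all genes). Of these 6, Hist1h4j, Hist1h4m and Hist3h2ba passed the low-count filter only through their dKO libraries, so they were favoured to differ. Hist2h2bb, with 11, 8 and 8 counts in WT and 23, 20 and 53 in dKO, also needed its dKO libraries to pass. Without dKO replicate 3, 34 of 40 were positive with a median of 0.26, 0 were called, and 9 higher and 1 lower had an unadjusted p under 0.05. Of all genes in that fit 50.1% were positive, and 5.1% higher and 5.18% lower had an unadjusted p under 0.05. Members share sequence and libraries and are not replicates of each other. Of these counts, those of calls and of p-values rest on the per-gene test, and no test was made over the family.

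**Figure D2:**
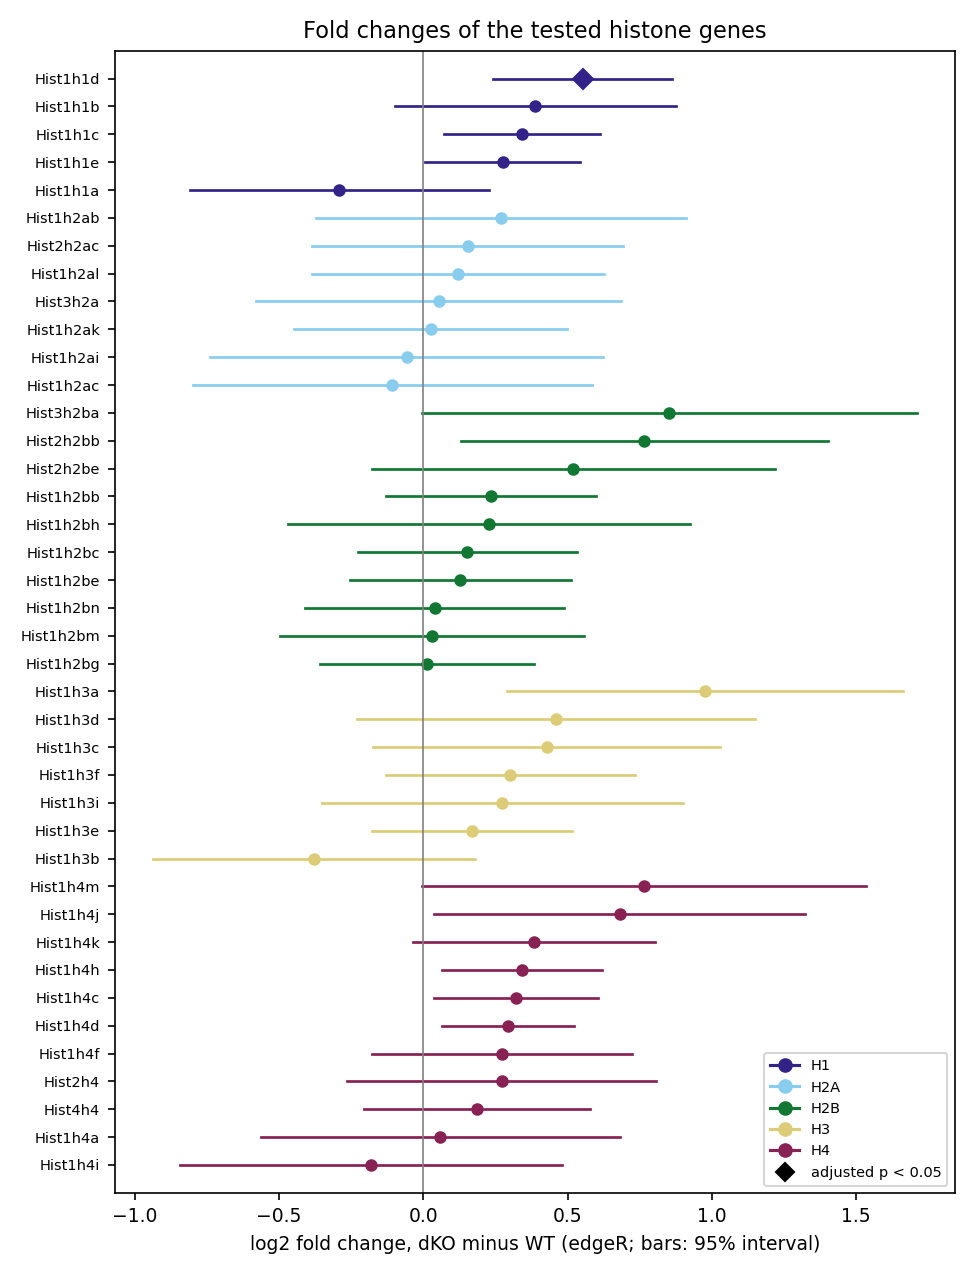
Log2 fold changes (dKO minus WT) of the 40 tested histone genes grouped and coloured by class, with horizontal bars for the 95% intervals from the edgeR fit and a diamond for an adjusted p under 0.05. The values run from -0.38 to 0.98, 35 of them lie above 0, and 1 gene, Hist1h1d, is called.

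The linker histone genes held the called gene. Of 6 H1 genes 5 were tested, 4 had positive log2 fold changes, and the class median was 0.34. Hist1h1d (ENSMUSG00000052565, chromosome 13, 23553262 to 23560686 on GRCm38), which encodes an H1 linker histone, had 9.11, 12.9 and 9.87 CPM in WT and 13.5, 15.4 and 16.1 CPM in dKO. Every dKO library was above every WT library, and the gene rose by 0.55 ± 0.16 (log2, SE; 95% interval 0.24 to 0.86; edgeR quasi-likelihood test, adjusted p = 0.0380). The call was lost in 9 of 16 alternative fits, including those without WT replicate 1 (adjusted p = 0.335), WT replicate 3 (0.142), dKO replicate 2 (0.0592) or dKO replicate 3 (0.314). Its direction was the same in all 16. In 1 of these, scaling by library totals, 99.7% of all genes were positive, so the direction there was fixed in advance. The annotated transcripts of Hist1h1d cover 7425 bases and run 4884 bases past the stem-loop, and per-gene counts do not tell which stretch gave the reads.

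The other H1 genes were not called. Hist1h1c, another linker histone, had 17.1, 15.1 and 13.2 CPM in WT and 18.5, 16.9 and 20.7 in dKO, a log2 fold change of 0.34 ± 0.14 (edgeR adjusted p = 0.228), and its groups overlapped by WT replicate 1. Hist1h1e had 17.8, 15.1 and 13.7 CPM in WT and 18.7, 16.6 and 20.0 in dKO, a difference of 0.27 ± 0.14 (adjusted p = 0.381). Its annotated exons overlap those of Hist1h2be on the same strand. Hist1h1a had the opposite sign, with 5.42, 5.66 and 3.80 CPM in WT and 3.43, 2.65 and 4.73 in dKO, a log2 fold change of -0.29 ± 0.26 (adjusted p = 0.724). The remaining tested H1 gene, Hist1h1b, which was named to complete the class, had a log2 fold change of 0.39 ± 0.24 (adjusted p = 0.548).

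H4 genes were the most often tested of the core histone genes, 11 of 13, and 10 of the 11 had positive log2 fold changes with a median of 0.29. Hist1h4d (chromosome 13, 23581598 to 23582735) had the highest scaled count of any H4 gene, with 24.5, 32.7 and 33.9 CPM in WT and 38.8, 40.0 and 33.8 in dKO. The groups met at WT replicate 3 and dKO replicate 3, and the log2 fold change was 0.29 ± 0.12 (edgeR adjusted p = 0.224). Hist1h4h (chromosome 13, 23531050 to 23531519) had 13.01, 17.3 and 14.7 CPM in WT and 21.7, 18.8 and 17.2 in dKO, a difference of 0.34 ± 0.14 (adjusted p = 0.242) with WT replicate 2 just above dKO replicate 3. Hist1h4c (chromosome 13, 23697635 to 23698454) had 14.1, 13.2 and 12.9 CPM in WT and 19.0, 14.7 and 16.6 in dKO, a difference of 0.32 ± 0.14 (adjusted p = 0.303). Its groups did not overlap.

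All H4 genes encode a near-identical core protein from separate copies, so they are told apart by their untranslated ends and silent codon changes. Among the scarcer copies, Hist1h4j had 1.73, 2.83 and 2.53 CPM in WT and 3.05, 3.37 and 4.08 in dKO, a log2 fold change of 0.68 ± 0.32 (edgeR adjusted p = 0.359). Hist1h4m had 1.52, 1.89 and 1.52 CPM in WT and 3.24, 2.89 and 2.53 in dKO, a difference of 0.76 ± 0.39 (adjusted p = 0.401). The groups of both genes were separate, but both genes passed the low-count filter only through their dKO libraries. Hist1h4m rests on 87 counts over the 6 libraries, and 10.2% of its 50-base runs are found at no other annotated locus. Hist1h4i, the H4 gene with a negative sign, had 2.82, 2.51 and 3.29 CPM in WT and 2.48, 1.69 and 2.85 in dKO, a log2 fold change of -0.18 ± 0.33 (adjusted p = 0.884).

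The H3 genes held both ends of the range. Of 12 genes 7 were tested, 6 were positive, and the class median was 0.30. Hist1h3a (chromosome 13, 23761853 to 23762386) had the highest log2 fold change of the tested histone genes, with 5, 12 and 6 counts in WT and 22, 13 and 62 in dKO. Scaled, these were 1.08, 3.77 and 1.52 CPM in WT and 4.19, 3.13 and 4.02 in dKO, so WT replicate 2 lay among the dKO libraries. The log2 fold change was 0.98 ± 0.34 (edgeR adjusted p = 0.148), and without WT replicate 2 it was 1.58 with an adjusted p of 0.0209. Hist1h3a needed its dKO libraries to pass the low-count filter, so it was favoured to differ.

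Hist1h3b, a copy in the same chromosome 13 cluster, had the most negative value of the tested histone genes, with 4.34, 5.66 and 3.29 CPM in WT and 3.81, 3.85 and 2.98 in dKO. The groups overlapped, and its log2 fold change was -0.38 ± 0.28 (edgeR adjusted p = 0.643). Hist1h3e, the most counted H3 gene, had 10.2, 10.4 and 7.84 CPM in WT and 11.4, 8.43 and 11.1 in dKO, a difference of 0.17 ± 0.17 (adjusted p = 0.760). Hist1h3c had 0.43 ± 0.30 and Hist1h3f had 0.30 ± 0.22 on the same log2 scale, with adjusted p of 0.616 and 0.626.

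The H2B genes were positive in 10 of 10 tested genes of 19, with a class median of 0.19. Hist2h2bb (chromosome 3, 96269752 to 96270132) had 2.39, 2.51 and 2.02 CPM in WT and 4.38, 4.81 and 3.43 in dKO. Its groups did not overlap, and its log2 fold change was 0.77 ± 0.32 (edgeR adjusted p = 0.263). Hist3h2ba (chromosome 11, 58948920 to 58949533) had 1.52, 0.629 and 1.77 CPM in WT and 3.05, 3.13 and 2.01 in dKO, from 2 to 7 counts per WT library, with a log2 fold change of 0.85 ± 0.43 (adjusted p = 0.400). Hist3h2ba passed the low-count filter only through its dKO libraries. Hist2h2bb, with 11, 8 and 8 counts in the WT libraries, also needed its dKO libraries to pass, so it was favoured to differ. Both genes lie outside the large cluster on chromosome 13.

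The most counted H2B genes differed less. Hist1h2bb had 6.503, 10.7 and 9.61 CPM in WT and 12.4, 8.43 and 9.98 in dKO, a log2 fold change of 0.23 ± 0.18 (edgeR adjusted p = 0.667). Hist1h2bc had 6.94, 6.92 and 10.9 CPM in WT and 11.0, 9.87 and 8.10 in dKO, a difference of 0.15 ± 0.19 (adjusted p = 0.815). Hist1h2bg had 7.37, 9.43 and 8.86 CPM in WT and 10.1, 7.94 and 8.03 in dKO, a difference of 0.013 ± 0.186 (adjusted p = 0.987) whose sign changed with the fit.

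The H2A genes had the lowest class median, 0.05, from 7 tested genes of 20, of which 5 were positive and 0 had an unadjusted p under 0.05. Hist1h2ak, the H2A gene with the highest CPM, had 5.20, 6.60 and 4.05 CPM in WT and 6.09, 4.81 and 5.12 in dKO, a log2 fold change of 0.03 ± 0.24 (edgeR adjusted p = 0.979). Hist1h2ai had 1.301, 2.51 and 5.06 CPM in WT and 2.48, 3.37 and 2.72 in dKO, a difference of -0.06 ± 0.34 (adjusted p = 0.967), and its value is set by WT replicate 3, without which it was 0.62. Hist1h2ac had 2.82, 2.20 and 2.78 CPM in WT and 2.86, 1.69 and 2.53 in dKO, a difference of -0.11 ± 0.35 (adjusted p = 0.939).

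Among the other named H2A genes, Hist1h2ab had a log2 fold change of 0.27 ± 0.32 and Hist2h2ac of 0.15 ± 0.27 (edgeR adjusted p = 0.801 and 0.879). Hist1h2al, which the annotation lists as a processed pseudogene without a coding sequence, stood at 0.12 ± 0.25 (edgeR adjusted p = 0.903). H2A was also the class with the most shared sequence. A median of 26.8% of the 50-base runs of an H2A gene are found at no other annotated locus, against 98.9% for H1, 56.2% for H2B, 42.8% for H3 and 60.5% for H4. All 20 H2A genes overlap an exon of an annotated gene on the opposite strand, as do 1 H2B, 1 H3 and 1 H4 gene. No source used here gives the strand setting of the count, so reads of these pairs may not have been told apart. Whether H2A differs from the other classes in its response was not tested.

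**Figure D3:**
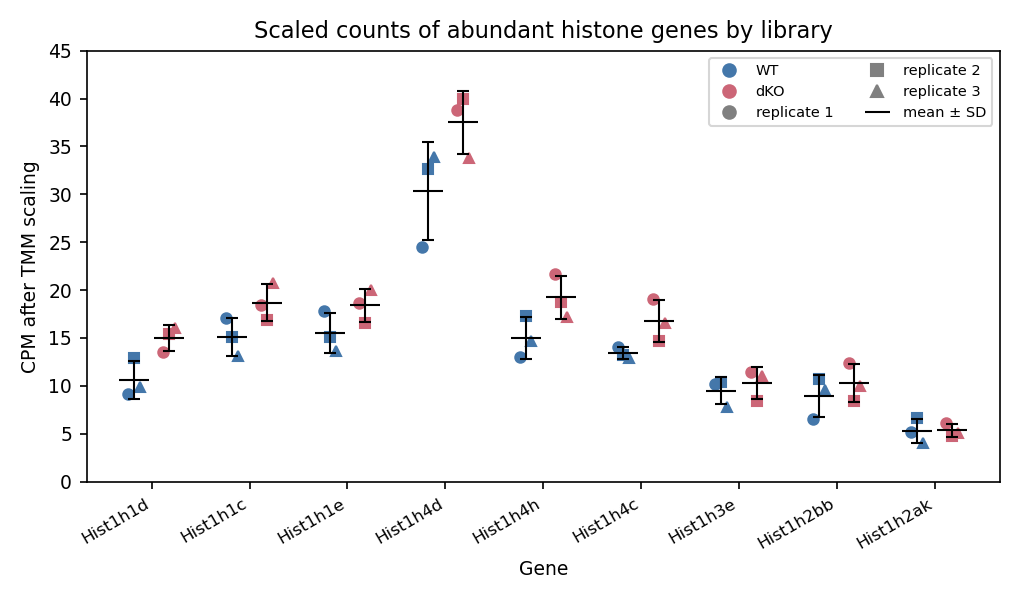
Scaled counts (CPM) of abundant histone genes in each of the 6 libraries, with points for libraries (blue WT, red dKO, the shape giving the replicate) and lines for each group's mean ± SD. The groups are separate for Hist1h1d and Hist1h4c, and they overlap for Hist1h1c, Hist1h4d and Hist1h2ak.

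The tested genes had less shared sequence than the untested ones, though 4 of the 15 genes with under 15% unique runs were tested. The parts of shared sequence and of expression in this were not separated. The median share of runs unique to the locus was 65.4% in the 40 tested genes, 23.4% in the 30 that were not tested and 11.3% in the 9 at 0. Hist2h2aa2 has 0% of its runs to itself and had 8 counts. The genes at 0 were Hist1h1t, Hist1h2aa, Hist1h2ao, Hist1h2ap, Hist2h2aa1, Hist1h2ba, Hist1h2bq, Hist1h2br and Hist2h3c1, and their unique shares ran from 2.68% for Hist1h2bq to 100% for Hist1h1t, the testis-specific linker histone. They were named after their counts were seen. Of the low ones, Hist1h2ao (6.497%) and Hist1h2ap (6.93%) have near copies elsewhere, so a count of 0 need not mean that no such RNA was present. The 21 untested genes with counts had 760 counts in all, 6.92% of the histone total.

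Most fold changes were positive on both sides of a split by shared sequence. Of the 30 tested genes with over 50% of runs unique, 27 were positive with a median of 0.27, and of the 10 with 50% or less, 8 were positive with a median of 0.14. All 9 genes with an unadjusted p under 0.05 were in the first set, which held 30 of the 40 tested genes. Genes of the first set can still share sequence. Hist1h3a, with 50.5% of runs unique, shares runs with 11 other members. Whether shared reads play a part in the shift was not tested. This split was added after the data were seen.

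**Figure D4:**
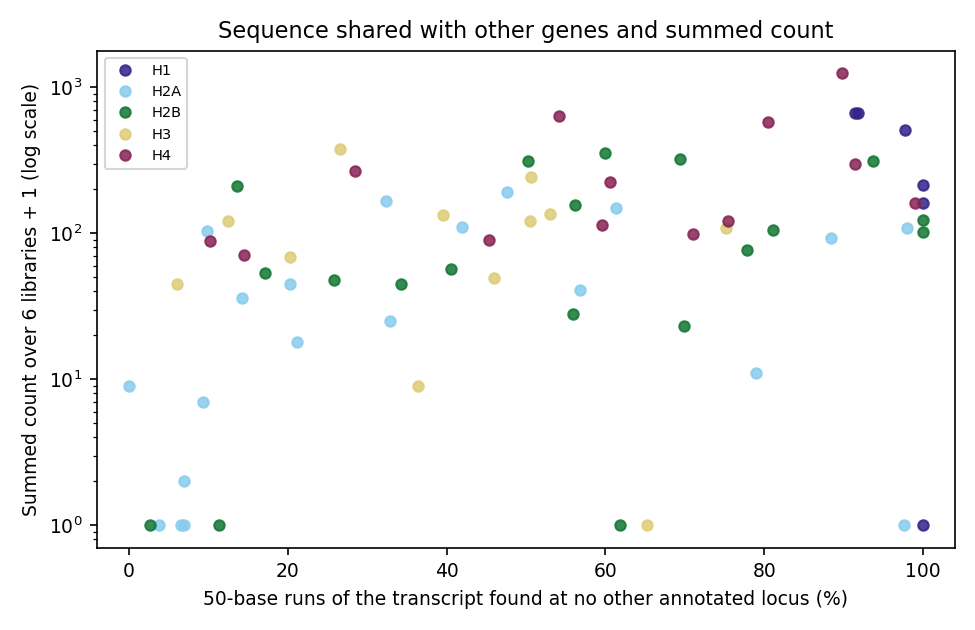
Summed count over the 6 libraries plus 1 (log axis) against the percentage of 50-base runs found at no other annotated locus, 1 point per histone gene, coloured by class. Genes without a count lie at 1 on the vertical axis, and 5 of the 9 are among the 15 genes with under 15% of runs unique.

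Medians were also taken by annotated transcript end and by genomic cluster. The 10 tested genes whose transcripts end within 100 bases of the stem-loop had a median log2 fold change of 0.27, and the 19 whose transcripts run further past it also had 0.27. Over all 23 genes of each kind, tested or not, the second kind had a median exon length of 1249 bases against 485. It held 56.5% of histone counts against 23.0%. The 10 tested coding genes with no stem-loop in the annotated transcript had a median of 0.21. By the cluster number in the symbol, Hist1 genes on chromosome 13 (33 tested) had a median of 0.27. These include the pseudogene Hist1h2al, which lies apart from the others at 51202727 to 51203065. Hist2 genes on chromosome 3 (4 tested) had 0.40 and Hist3 genes on chromosome 11 (2 tested) 0.45. Hist4h4 on chromosome 6 stood at 0.19. Differences between these sets were not tested.

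Per kilobase of exon, H4 and H2B copies led the named genes. Hist1h4h had 31.9 ± 4.59 CPM per kb in WT and 40.9 ± 4.84 in dKO (SD, n = 3), and Hist1h4d had 26.7 ± 4.50 and 33.0 ± 2.88. Hist1h2bb (17.6 ± 4.28 in WT), Hist1h4c (16.3 ± 0.754), Hist1h2bg (13.8 ± 1.72), Hist1h2ak (13.4 ± 3.25), Hist1h2al (12.7 ± 1.08) and Hist1h3e (11.3 ± 1.69) came next, in that order of means. By this measure Hist1h4h stood above Hist1h4d by more than either SD in both groups, although Hist1h4d had the higher CPM in every library. Their order per kb therefore depends on the annotated length used as divisor. The 1138 bases of Hist1h4d run 770 bases past the stem-loop, and the 470 of Hist1h4h run 46. Which stretch gave the reads was not tested. Hist1h2bb and Hist1h4c differed in WT by less than the SD of Hist1h2bb. Hist1h1c had 9.69 ± 1.27 and Hist1h1e 8.04 ± 1.08. Hist1h1d, with its long annotation, had 1.43 ± 0.269 CPM per kb in WT and 2.02 ± 0.178 in dKO.

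The genes that act with the histone family were read against the 1.92% of all tested genes called in either direction. Before adjustment, 5.66% of all tested genes had p under 0.05 with a higher level in dKO and 6.88% with a lower level. The log2 fold change was positive for 49.8% of all tested genes. Of 11 replication-independent histone variants, whose transcripts are polyadenylated and made through the cell cycle, 8 were tested and 0 were called, 1 had an unadjusted p under 0.05 by edgeR, and the median log2 fold change was 0.15. H2afy, which encodes macroH2A, stood at 0.28 ± 0.13 (edgeR adjusted p = 0.338) and H2afz, which encodes H2A.Z, at -0.36 ± 0.18 (adjusted p = 0.416). The list held 0.103% to 0.118% of counts in WT and 0.105% to 0.117% in dKO, ranges that overlap. Of the 8 tested variants 6 had a positive log2 fold change and 2 a negative one. H3f3b, with 1854 counts over the 6 libraries, stood at -0.12 ± 0.10 (edgeR adjusted p = 0.711). Whether the variants differ from the 70 Hist genes in this was not tested.

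Of 27 genes for histone pre-mRNA processing and turnover, 21 were tested, 1 was called lower and 0 higher, and the median log2 fold change was 0.07. The called gene was Xrn1, a 5′ to 3′ exoribonuclease that degrades decapped RNA, which fell from 12.9 ± 1.65 to 8.504 ± 0.357 CPM (log2 fold change -0.60 ± 0.17, edgeR adjusted p = 0.0348). Slbp, the stem-loop binding protein, had 4.35 CPM in WT and 4.54 in dKO, a log2 fold change of 0.16 ± 0.25 (adjusted p = 0.860). Npat, a coactivator of histone gene transcription, had 3.72 and 3.68 CPM, a difference of -0.07 ± 0.28 (adjusted p = 0.953). Slbp and Npat were chosen for their role in the pathway.

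Of 22 histone chaperones 15 were tested, 0 were called and 1 had an unadjusted p under 0.05 by edgeR, with a median log2 fold change of 0.03. Such a p was found in 5.66% of all genes with dKO higher and in 6.88% with dKO lower. The smallest p were those of Supt6, a transcription elongation factor that handles histones (-0.35 ± 0.14, edgeR adjusted p = 0.224), and Rbbp4, a subunit of the CAF-1 complex (0.24 ± 0.13, adjusted p = 0.449).

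Of 40 S-phase and proliferation genes 16 were tested, 0 were called and 2 had an unadjusted p under 0.05 by edgeR. Such a p was found in 5.66% of all genes with dKO higher and in 6.88% with dKO lower. Of the 16, 10 had negative and 6 positive log2 fold changes, with a median of -0.10, where 49.8% of all genes were positive. Mki67, a marker of cycling cells, had 7.22 ± 0.826 CPM in WT and 4.46 ± 1.28 in dKO, a log2 fold change of -0.66 ± 0.23 (edgeR adjusted p = 0.132). Mcm7, a subunit of the replicative helicase, stood at -0.67 ± 0.24 (adjusted p = 0.170). Top2a, a topoisomerase of dividing cells, and Pcna, the replication clamp, stood at -0.08 ± 0.19 and 0.06 ± 0.20. The list's summed share was 0.0850% to 0.0928% in WT and 0.0792% to 0.0880% in dKO, ranges that overlap. Whether this list differs from the histone genes was not tested.

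Markers of other retinal cells differed between the groups beside the histone genes. Of all tested genes 0.734% were called higher and 1.18% lower. Rod photoreceptor markers, of which 13 of 14 were tested and 7 rose with 0 falling, held 0.202% to 0.226% of counts in WT and 0.360% to 0.446% in dKO. Of 12 bipolar cell markers 10 were tested and 4 fell, and the list held 0.189% to 0.198% in WT and 0.137% to 0.144% in dKO. B and plasma cell markers, 10 in all with 4 tested, held 0.313% to 0.393% in WT and 0.269% to 0.297% in dKO, with 1 called lower. The 14 RGC markers are given above, with 1 called higher, Nefl, a neurofilament subunit. Ranges overlapped for Müller glia and astrocytes, microglia and macrophages, T and NK cells, and endothelial and mural cells. In these lists 1 of 14 tested Müller glia and astrocyte markers and 1 of 14 tested microglia and macrophage markers were called higher. For T and NK cells 1 of 8 tested markers was called lower, and for endothelial and mural cells 0 of 6 were called. The part of these shifts in the histone result was not tested.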

How the data were processed

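RNA was measured in 6 libraries (WT 3, dKO 3). The deposited table holds unnormalized whole-number read counts, 1 row per Ensembl gene. STAR 2.7.0d, DESeq2 1.22.2 and GRCm38 are named per the submitters' processing notes. Which program counted the reads, with which strand setting, multi-match rule and annotation, is not given in the sources used here. Exon lengths, positions and transcripts came from GENCODE M21.

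With edgeR 4.0.16 in R 4.3.3, genes passing filterByExpr (at least 10 counts, total at least 15) were TMM-scaled and given a two-sided quasi-likelihood F test on the group alone, with Benjamini-Hochberg adjustment over 8444 genes. CPM were computed from the deposited counts with the TMM factors (0.643 to 3.38), the ribosomal RNA row included. Sums are percentages of counts outside that row, which took most reads and so limits precision. Each library comes from 3 mice per the labels, which do not say that libraries of a group are from different mice. P-values therefore reflect only library-to-library spread, possibly technical. Shared sequence is the share of a gene's 50-base transcript runs absent from every other annotated locus.

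The members and lists were chosen with earlier results of these data known. Named histone genes (26) are every called one, the 3 most abundant and 2 smallest p of each class, and the 5 largest positive and negative fold changes; other names were picked for their role or after their values were seen. On simulated counts for the 8444 genes, changes of 1.5 times were recovered in 35.6% of cases, of 2 times in 76.2% and of 4 times in 96.9%, with 8 of 144 calls false. The simulation gave every library the same ribosomal RNA share. It thus gave dKO replicate 3 fewer non-ribosomal counts than it has, and the other libraries more, so recovery in the real data may be lower. Alternatives changed the scaling, filter, tool (DESeq2 1.42.0, limma 3.58.1), ribosomal RNA row, depth of dKO replicate 3, replicate block and libraries.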

Additional observations from a re-analysis of the deposited data

How the results depend on the processing

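Scaling by library totals alone moved these values, the ribosomal RNA share being lowest in dKO replicate 3: the median log2 fold change of all genes became 1.20, that of the histone genes 1.44, and those of H1, H2A, H2B, H3 and H4 became 1.56, 1.221, 1.37, 1.45 and 1.47. With the ribosomal RNA row in the denominator, the log2 ratios of the sums became 1.54 (H1), 1.27 (H2A), 1.41 (H2B), 1.44 (H3), 1.502 (H4) and 1.46 (all). Relative to all genes, the histone median was positive in each of its 18 alternatives.

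The genes called over the whole table numbered 162, but 3 under library totals, 52 with DESeq2 and 90 to 187 with 1 library left out. The histone genes called numbered 0 under library totals, DESeq2, limma-voom and with dKO replicate 3 thinned to 463033 counts, and 0 to 2 with 1 library left out. With the replicate block they numbered 0; same-numbered libraries correlated by 0.0262, 0.0129 and 0.0287, below 0.1, each best with its own number, which is a hint from the data and not from the design. The cause of these losses was not tested. Leaving out 1 library at a time gave medians of 0.21 to 0.30 (all histone genes), 0.22 to 0.40 (H1), 0.03 to 0.18 (H2A), 0.14 to 0.31 (H2B), 0.16 to 0.34 (H3) and 0.25 to 0.39 (H4). The 0.31 for H2B came without WT replicate 3 with 11 genes tested, and was 0.20 over the same 10 genes.

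Signs reversed under library totals for Hist1h1a (0.92), Hist1h2ac (1.09), Hist1h2ai (1.19), Hist1h3b (0.76) and Hist1h4i (1.04), but all 5 stayed below the all-gene median under that scaling, which fixes these flips. They also reversed for Hist1h2ai with limma-voom (0.14) and without WT replicate 3 (0.62), for Hist1h2ak without WT replicate 3 (-0.13) or dKO replicate 1 (-0.04), and for Hist1h2bg with limma-voom (-0.0015), thinned (-0.032), and without WT replicate 1 (-0.10) or dKO replicate 1 (-0.07). With 1 library left out, Hist1h2ai ran from -0.495 to 0.62, Hist1h2bg from -0.10 to 0.11 and Hist1h2ak from -0.13 to 0.18. The other histone genes named by rule kept their sign. At a median of 159.5 counts per tested histone gene, the median standard error was 0.26 on the log2 scale, so a change of that size in a gene of median count lies within its error.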
